A study of Mus musculus with 9 samples.

Results

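The genes described here are 8 Toll-like receptors (Tlr1, Tlr2, Tlr3, Tlr4, Tlr6, Tlr7, Tlr8 and Tlr9), the co-receptor Cd14 and the adaptor Myd88. All probes carrying 1 of these 10 symbols were taken, which gave 15 of the 45281 gene probes of an Illumina MouseWG-6 v2.0 bead array. Tlr4 had 3 probes, Tlr6, Tlr9 and Myd88 had 2 each, and the others had 1. Transcript levels were measured on 9 arrays, with 3 arrays in each of 3 groups of sorted activated hepatic stellate cells (aHSCs), the scar-forming cells of injured liver. All cells came from C57/Bl6 mice labelled male and of the WT1GFP/+ genotype, in which 1 Wt1 allele carries a knocked-in green fluorescent protein (GFP) reporter, so that every group, the GFP-negative cells included, bears that allele. The labels give no age. The GFP-high and GFP-low cells, termed WT1-high and WT1-intermediate, were sorted directly from livers chronically injured by intraperitoneal carbon tetrachloride. The GFP-negative cells, termed WT1-negative, were sorted from stellate cells that had activated during 7 days of culture on plastic. Replicates carry the numbers of the labels, which are 1, 8 and 29 for WT1-high, 1, 8 and 30 for WT1-intermediate, and 3, 11 and 14 for WT1-negative. Per the study, 3 animals gave the arrays of the in vivo groups. No WT1-negative cells from liver were arrayed, so that WT1 status, liver or culture origin and the separately exported data table cannot be told apart in any comparison with WT1-negative cells.

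Toll-like receptors are membrane receptors that recognise microbial molecules and some molecules released by damaged tissue. TLR1, TLR2, TLR4 and TLR6 act at the cell surface, where CD14 hands lipopolysaccharide to TLR4 with its partner MD-2 and also serves TLR2, whereas TLR3, TLR7, TLR8 and TLR9 sense nucleic acids in endosomes. Every Toll-like receptor except TLR3 signals through MYD88 to NF-kappaB, and TLR4 also signals through TRIF, the only adaptor of TLR3. In liver, resident macrophages (Kupffer cells) are rich in these receptors, and stellate cells are known to respond to lipopolysaccharide through TLR4.

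The array read each transcript through a 50-base probe, and the sequences of 5 probes are shown because the results on these genes rest on them. Tlr1 and Tlr6 are related genes that lie next to each other, with 0 protein-coding genes between them in RefSeq (GRCm38.p6), and their leading probes can be laid over each other. Over 36 overlapping bases, 26 were identical, in capitals below, and the longest identical run was 11 bases. The Tlr2 and Tlr8 probes are the only ones of their genes. The Tlr4 probe shown is the 1 of 3 that was detected on no array. Sequences run 5′ to 3′ as in the deposited tables, which name no genome build, and the tables place Tlr1 and Tlr6 on chromosome 5, Tlr2 on chromosome 3, Tlr8 on chromosome X and Tlr4 on chromosome 4.
Tlr1 (ILMN_1236908): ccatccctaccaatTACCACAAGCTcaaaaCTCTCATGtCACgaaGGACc
Tlr6 (ILMN_3162337): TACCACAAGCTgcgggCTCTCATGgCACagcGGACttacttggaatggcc
Tlr2 (ILMN_2733733): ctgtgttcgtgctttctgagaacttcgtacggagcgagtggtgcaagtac
Tlr8 (ILMN_2460572): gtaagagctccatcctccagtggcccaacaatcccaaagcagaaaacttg
Tlr4 (ILMN_2690004): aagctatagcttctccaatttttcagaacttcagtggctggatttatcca
No member probe shared a stretch of 20 bases, on either strand, with a probe of any other symbol on the array. Whether Tlr1 transcripts bind the Tlr6 probe, or the reverse, was not tested.

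Levels are given as log2 normalized intensity, after background correction from the negative control probes and quantile normalization, and a level belongs to its own probe, so levels of different probes are not compared. A probe counts as detected on an array where its deposited detection p-value was under 0.05. Of the 15 member probes, 12 were detected on at least 3 arrays and were tested. These 12 covered 9 genes, and the probe with the highest mean level leads a gene with several. The remaining 3 were both Tlr9 probes and 1 Tlr4 probe, each detected on 0 of 9 arrays. An adjusted p under 0.05, by limma with Benjamini-Hochberg adjustment over the 20573 probes tested, is termed a call, and the groups' 3 arrays may differ through animals, cultures or handling.

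Between 17253 and 19774 probes were detected per array, and mean intensities lay between 147 and 289. Other cell types were looked for with marker lists. All 3 groups expressed stellate cell genes, with 10 or 11 of 11 tested markers detected on every array. Their summed normalized intensity was 20360 to 24292 in WT1-high, 20491 to 26513 in WT1-intermediate and 14511 to 18420 in WT1-negative cells. The stellate cell markers did not move together. Of the 11, 4 were called higher and 4 lower in WT1-high than in WT1-negative cells. For WT1-intermediate against WT1-negative cells the counts were 4 and 3. Lum, like Dcn, was higher in vivo (10.02 to 11.35) than in WT1-negative cells (7.74 to 9.29). Col1a1, like Acta2, was lower in vivo (7.95 to 9.44) than in WT1-negative cells (9.79 to 10.35). Lrat, a defining gene of retinoid-storing stellate cells, was detected on 1 of 3 WT1-high arrays and on no other. Macrophage markers were present on all arrays, with 16 to 18 of 18 tested markers detected, while Cd5l and Ccr2 were detected on none. The summed intensity of 18 tested macrophage markers was 4338 to 7652 in WT1-high, 15200 to 24929 in WT1-intermediate and 48334 to 53056 in WT1-negative cells, so that the 3 groups did not overlap. Of these 18 markers, 12 were called lower in WT1-high cells than in the WT1-intermediate group and 0 higher, by limma with Benjamini-Hochberg adjustment. Over all probes the shares were 2.64% and 0.904%. The complement genes C1qa, C1qb and C1qc and the lysosomal gene Cd68 were detected on all 9 arrays and had means in the same order as the summed intensity. Not all markers kept it, since 5 of the 18 were called higher and 7 lower in WT1-intermediate cells against WT1-negative cells. All probes gave 24.4% higher and 33.6% lower, near these counts. Marco, Vsig4 and Mpeg1 were among the 5, with means of 9.15, 8.85 and 11.57 in WT1-intermediate and 6.78, 7.39 and 10.30 in WT1-negative cells. The Kupffer cell genes Clec4f and Timd4 were detected on every in vivo array and on 0 of 3 WT1-negative arrays. In bulk samples such as these, fewer cells of a type and less RNA per cell cannot be told apart. Other lists moved with the groups too. The summed intensity of 10 mesothelial markers was 35761 to 40096 in WT1-high, 20684 to 28643 in WT1-intermediate and 376 to 470 in WT1-negative cells. The sum of 10 endothelial markers was 1091 to 1448, 1776 to 2209 and 922 to 1262 in the same order. Of these 10, 2 were called lower in WT1-high cells against the WT1-intermediate group, beside 2.64% of all probes. The endothelial markers did not move together. Against WT1-negative cells, 3 were called higher and 4 lower in WT1-high, and 3 higher and 5 lower in WT1-intermediate cells. All probes gave 26.5% and 33.1%, and 24.4% and 33.6%. Clec4g had levels of 9.32 to 10.46 in vivo and 6.43 to 7.50 in WT1-negative cells, whereas Emcn had 5.29 to 6.19 and 8.23 to 8.62. Dendritic cell markers (4 tested) summed to 372 to 610, 434 to 873 and 85.4 to 90.1, hepatocyte markers (6 tested) to 418 to 2283, 520 to 1602 and 128 to 265, and B cell markers (4 tested) to 125 to 160, 162 to 187 and 317 to 371. Flt3, Xcr1, Ms4a1 and Alb were detected on no array. The part of any of these cells in the differences described next was not tested.

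**Figure D1:**
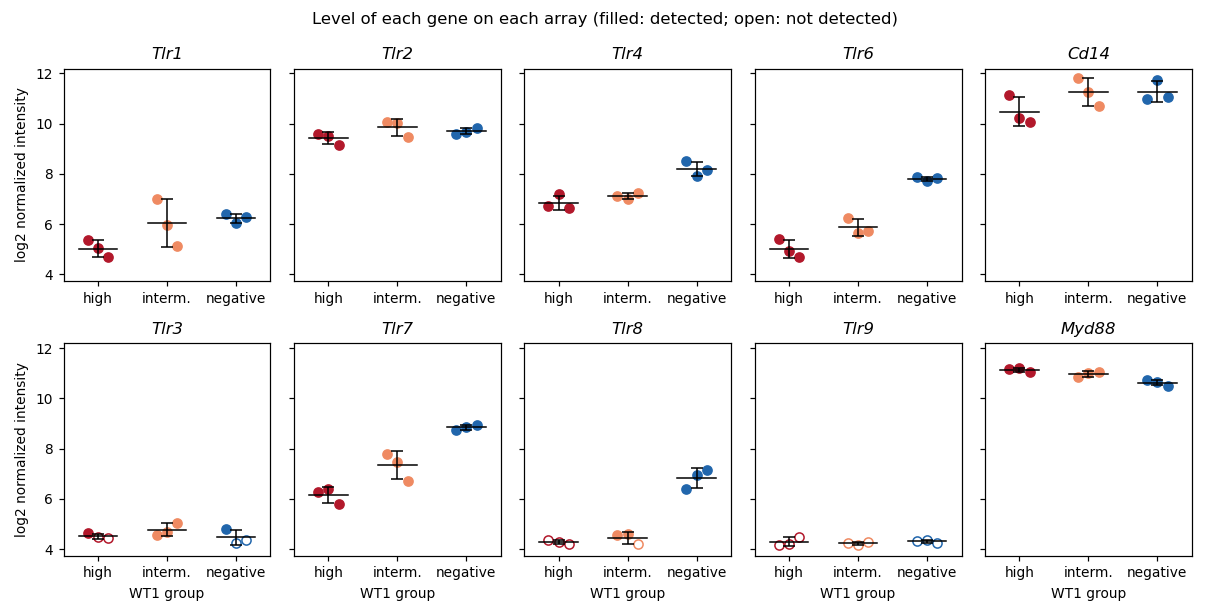
Log2 normalized intensity of the leading probe of each gene (brighter probe for Tlr9) on each array, by WT1 group, with 1 point per array, horizontal bars at the mean and error bars of 1 SD (n = 3). Tlr6, Tlr7 and Tlr8 are highest on all 3 WT1-negative arrays, Cd14 and Tlr2 overlap between groups, and Tlr9 is open, meaning not detected, on all 9 arrays.

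Among the surface receptors, Tlr4 and Tlr6 were lower in both in vivo groups than in WT1-negative cells, Tlr1 was lower in WT1-high than in WT1-negative cells, and Tlr2 and Cd14 were called in no comparison of the 3-group fit to all 9 arrays, although Cd14 was called under some alternatives. Tlr4, the lipopolysaccharide receptor, had levels of 6.71, 7.18 and 6.64 on WT1-high arrays 1, 8 and 29, of 7.11, 7.01 and 7.23 on WT1-intermediate arrays 1, 8 and 30, and of 8.51, 7.93 and 8.16 on WT1-negative arrays 3, 11 and 14. All WT1-negative values lay above all in vivo values, whereas the in vivo groups overlapped. Tlr4 was 2.56-fold lower in WT1-high than in WT1-negative cells (log2 difference -1.36 ± 0.19 SE, limma adjusted p = 0.000108). The WT1-intermediate cells were 2.12-fold lower than WT1-negative cells (-1.09 ± 0.19 SE, limma adjusted p = 0.000585). A second Tlr4 probe gave -1.52 and -1.23 for the same comparisons, both called. The undetected Tlr4 probe shown above stayed between 78.3 and 98.7 intensity units, against negative control medians of 76.3 to 93.6.

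TLR6 pairs with TLR2 to recognise diacylated lipopeptides. Its transcript had levels of 5.42, 4.92 and 4.70 in WT1-high, 6.25, 5.64 and 5.73 in WT1-intermediate, and 7.86, 7.71 and 7.85 in WT1-negative cells. None of the 3 groups overlapped, in the order WT1-high, WT1-intermediate, WT1-negative. Tlr6 was 6.93-fold lower in WT1-high than in WT1-negative cells (log2 difference -2.79 ± 0.21 SE, limma adjusted p = 1.0e-06) and 3.82-fold lower in WT1-intermediate cells (-1.93 ± 0.21 SE, limma adjusted p = 1.94e-05). Its second probe shared a longest stretch of 11 bases with the leading probe. That probe was detected on 0 of 3 WT1-high, 1 of 3 WT1-intermediate and 3 of 3 WT1-negative arrays, and was at least 2.27-fold lower in WT1-high than in WT1-negative cells (limma adjusted p = 7.63e-06). It passed the filter only through the WT1-negative arrays, where it was high, so that its call is no separate support for the leading probe. Here and below, "at least" sets the brighter group's mean against the lowest signal of a detected probe on the dimmer group's arrays.

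TLR1 pairs with TLR2 to recognise triacylated lipopeptides. Tlr1 had levels of 5.37, 5.04 and 4.68 in WT1-high, 7.02, 5.98 and 5.14 in WT1-intermediate, and 6.39, 6.03 and 6.28 in WT1-negative cells. The WT1-intermediate arrays spread over 1.88 log2 units and overlapped both other groups. Tlr1 was 2.31-fold lower in WT1-high than in WT1-negative cells (log2 difference -1.21 ± 0.37 SE, limma adjusted p = 0.0162). That call was lost without WT1-high array 29 (-1.04, limma adjusted p = 0.0547). The WT1-intermediate mean lay at -0.19 from the WT1-negative mean, with a 95% interval from -1.01 to 0.63, and did not pass the test (limma adjusted p = 0.681).

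TLR2 is the shared partner of TLR1 and TLR6. Tlr2 levels were 9.61, 9.52 and 9.16 in WT1-high, 10.08, 10.03 and 9.47 in WT1-intermediate, and 9.58, 9.68 and 9.82 in WT1-negative cells. All 3 groups overlapped. The difference from WT1-negative cells was -0.27 for WT1-high (95% interval -0.69 to 0.16) and 0.17 for WT1-intermediate cells (-0.26 to 0.59), so that changes beyond those intervals were not seen. Without an adjusted p under 0.05 in any comparison (0.255 to 0.48, by limma with Benjamini-Hochberg adjustment), Tlr2 stood apart from its partner Tlr6 only in its own values, and the difference between these genes was not tested.

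Cd14 was bright on every array, with levels of 11.15, 10.22 and 10.08 in WT1-high, 11.80, 11.27 and 10.69 in WT1-intermediate, and 11.00, 11.75 and 11.06 in WT1-negative cells. The groups overlapped, with a spread within groups of 0.42 to 0.58 log2 units (SD, n = 3). The log2 difference between WT1-high and WT1-negative cells was -0.79 (95% interval -1.53 to -0.05), which missed the threshold (limma adjusted p = 0.0626) and passed it without WT1-high array 1 (-1.12, limma adjusted p = 0.0125) and without WT1-intermediate array 1 or 30. WT1-intermediate and WT1-negative means differed by -0.01 (95% interval -0.75 to 0.72).

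Of the endosomal receptors, Tlr7 and Tlr8 were lower in both in vivo groups than in WT1-negative cells, Tlr3 was near background and Tlr9 was not detected. TLR7, a sensor of single-stranded RNA, gave the only call between the in vivo groups in the 3-group fit to all 9 arrays. With pairs as a fixed block it gave 1 of 4, and other settings without pairing changed the count in both directions. Its transcript had levels of 6.26, 6.39 and 5.78 in WT1-high, 7.80, 7.47 and 6.72 in WT1-intermediate, and 8.74, 8.87 and 8.94 in WT1-negative cells. None of the groups overlapped, and WT1-negative arrays lay within 0.20 log2 units of each other. Tlr7 was 6.52-fold lower in WT1-high than in WT1-negative cells (log2 difference -2.70 ± 0.26 SE, limma adjusted p = 5.07e-06). In WT1-intermediate cells it was 2.86-fold lower (-1.52 ± 0.26 SE, limma adjusted p = 0.000426).

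Tlr8 lies beside Tlr7 on the X chromosome, with 0 protein-coding genes between them, and encodes a related receptor. Its levels were 4.36, 4.28 and 4.22 in WT1-high, 4.58, 4.60 and 4.19 in WT1-intermediate, and 6.37, 6.96 and 7.16 in WT1-negative cells. It was detected on 0 of 3 WT1-high, 2 of 3 WT1-intermediate and 3 of 3 WT1-negative arrays, with no overlap between WT1-negative and in vivo arrays. The probe passed the filter only with the WT1-negative arrays, where it was high, and such a filter favours a lower level in vivo. Tlr8 was at least 4.88-fold lower in WT1-high than in WT1-negative cells (limma adjusted p = 1.51e-06). For WT1-intermediate cells the fitted difference was -2.38 ± 0.21 SE (limma adjusted p = 3.17e-06), with 1 of its 3 arrays not above background. Without background correction the fitted Tlr8 differences shrank to -1.06 and -1.01, still called.

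TLR3, the sensor of double-stranded RNA, had levels of 4.62, 4.47 and 4.43 in WT1-high, 4.58, 4.67 and 5.06 in WT1-intermediate, and 4.81, 4.23 and 4.36 in WT1-negative cells. Its probe was detected on 1, 3 and 1 of 3 arrays in these groups, which overlapped. No comparison was called, with adjusted p-values of 0.189 to 0.864 by limma with Benjamini-Hochberg adjustment, although the WT1-intermediate difference from WT1-negative cells, 0.30, became 0.62 and was called with median scaling (limma adjusted p = 0.0432). Tlr9, a sensor of unmethylated CpG DNA, was given by 2 probes whose intensities lay between 74.7 and 97.6 units on the 9 arrays, beside negative control medians of 76.3 to 93.6. Neither probe entered a test.

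Myd88, the shared adaptor, was the only member called higher in an in vivo group than in WT1-negative cells in the 3-group fit to all 9 arrays. Its leading probe had levels of 11.19, 11.19 and 11.04 in WT1-high, 10.84, 11.01 and 11.05 in WT1-intermediate, and 10.72, 10.64 and 10.51 in WT1-negative cells. The WT1-negative arrays lay below all in vivo arrays. The log2 difference from WT1-negative cells was 0.51 ± 0.14 SE for WT1-high (limma adjusted p = 0.00781). For WT1-intermediate cells it was 0.34 ± 0.14 SE and missed the threshold (limma adjusted p = 0.054). The other Myd88 probe moved further, with levels of 8.79, 8.77 and 9.04, of 8.73, 8.66 and 8.85, and of 6.94, 6.41 and 7.05 in the same order of groups. On that probe Myd88 was 4.20-fold higher in WT1-high (2.07 ± 0.18 SE, limma adjusted p = 2.99e-06) and 3.86-fold higher in WT1-intermediate cells, both against WT1-negative cells (1.95 ± 0.18 SE, limma adjusted p = 5.82e-06). The probes thus gave the same direction and different sizes, and which transcripts each of them reads was not tested.

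**Figure D2:**
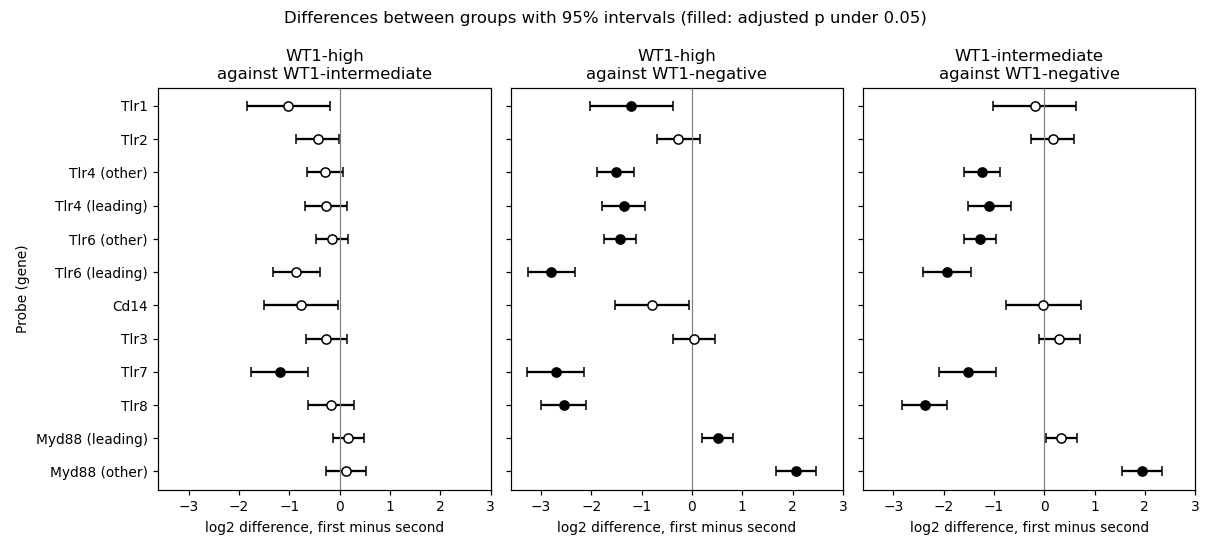
Log2 difference between group means (points) with 95% intervals (bars) for the 12 tested member probes in the 3 comparisons, filled where the limma adjusted p was under 0.05. Tlr7 alone is filled between the in vivo groups, while Tlr4, Tlr6, Tlr7 and Tlr8 lie left of zero and 1 Myd88 probe lies near 2 in both comparisons with WT1-negative cells.

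Between WT1-high and WT1-negative cells, 6 of the 9 tested member genes were called, and 9 of the 12 probes. Across all probes the share called was 59.6%. Of the genes, 5 were lower, where 33.1% of all probes were called lower, and 1 was higher, where 26.5% were called higher. The groups did not overlap for 6 of 9 genes, against 68.4% of all probes. The median log2 difference of the 9 genes was -1.21, against -0.10 over all probes tested. A call as such was therefore common in this comparison. Whether the directions or the median of these 9 genes differ from those of all probes was not tested.

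For WT1-intermediate against WT1-negative cells, 4 of 9 genes were called (Tlr4, Tlr6, Tlr7 and Tlr8), with 58.0% of all probes called. All 4 were lower, beside 33.6% of all probes. None of the leading probes was called higher, beside 24.4% of all probes, although the other Myd88 probe was. Non-overlapping groups were seen for 5 of 9 genes and for 65.5% of all probes. The median of the members was -0.19, close to the -0.13 over all probes. Both of these comparisons use the same WT1-negative arrays, and Tlr8 passed the filter only with their detections.

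The question of whether WT1-high and WT1-intermediate cells of the same livers differ is the only one here in which origin is shared. The Tlr7 level of WT1-high cells was 2.28-fold below that of WT1-intermediate cells (log2 difference -1.19 ± 0.26 SE, 95% interval -1.75 to -0.62, limma adjusted p = 0.0296). It was the 1 gene called of 9, beside 3.55% of all probes called, 2.64% lower and 0.904% higher. The groups did not overlap for Tlr6 and Tlr7, which is 2 of 9 genes, beside 20.1% of all probes. Of the 9 leading probes, 8 had a lower mean in WT1-high cells and Myd88 a higher one, and the median was -0.43 against 0.05 over all probes.

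The Tlr7 call was lost under 9 of 20 alternatives. It was lost without any 1 of WT1-high arrays 1, 8 or 29 (-1.25, -1.31 and -1.001, limma adjusted p = 0.0558, 0.0591 and 0.0985). It was also lost without WT1-intermediate array 1 or 8 (-0.96 and -1.12, limma adjusted p = 0.107 and 0.0721), while the direction held under all 20. Arrays of these groups pair by replicate number, and WT1-intermediate 30 goes with WT1-high 29, since the deposited table heads both with 29. Tlr7 was lower in the WT1-high array of every pair, by -1.54, -1.08 and -0.94 log2 units for pairs 1 with 1, 8 with 8 and 29 with 30. The leading Tlr6 probe was lower by -0.84, -0.71 and -1.03, and Cd14 by -0.66, -1.05 and -0.61. Tlr1 differed by -1.65, -0.94 and -0.46 and Tlr2 by -0.48, -0.51 and -0.31, so that these genes too were lower in the WT1-high array of all 3 pairs.

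With the pairs as a fixed block, 4 genes were called lower in WT1-high cells in place of 1. These were Tlr7 (limma adjusted p = 0.00292), Tlr6 (limma adjusted p = 0.00915), Cd14 (limma adjusted p = 0.0186) and Tlr1 (limma adjusted p = 0.0205), and the calls over all probes rose from 730 to 1520. Without the block, the adjusted p-values of limma were 0.0524 for Tlr6, 0.267 for Cd14 and 0.186 for Tlr1. The block was not the only setting to add calls, since Tlr6 was called under 6 of 20 alternatives and Tlr1 under 3, with Tlr1 ranging from -1.51 without WT1-intermediate array 30 to -0.43 without background correction. Tlr6 was also called without WT1-high array 1 (-1.06, limma adjusted p = 0.0265). Tlr2 was called in neither fit (limma adjusted p = 0.127 with the block). Tlr4 gave -0.27 (95% interval -0.69 to 0.15) and the leading Myd88 probe 0.17 (-0.13 to 0.48), and neither was called with or without the block.

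**Figure D3:**
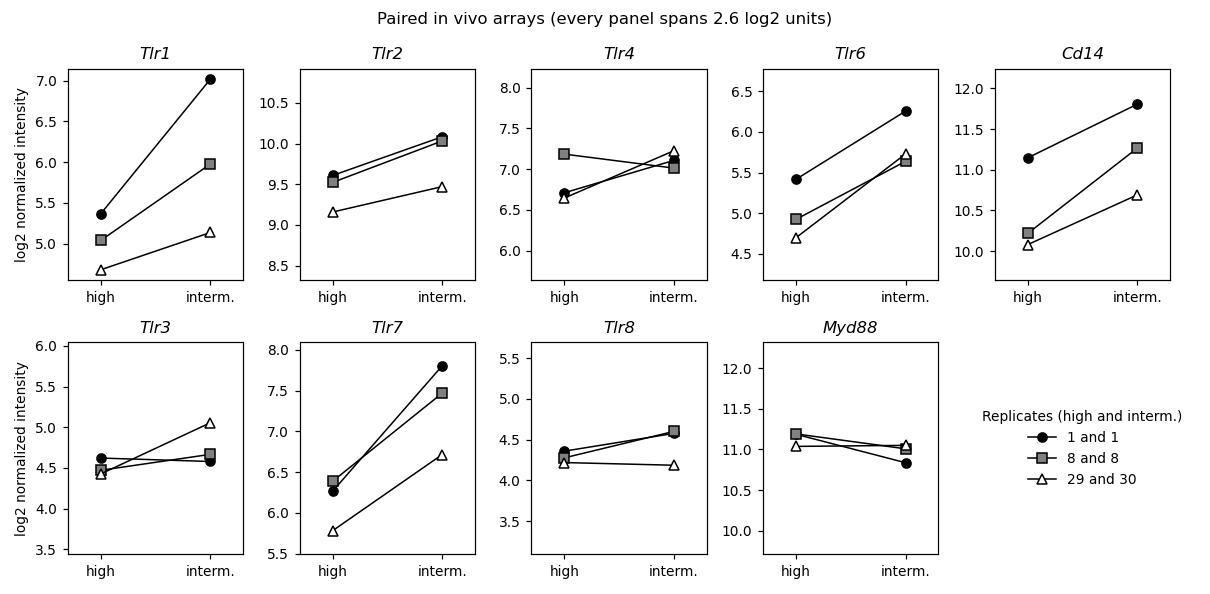
Log2 normalized intensity of the leading probe of the 9 tested genes in WT1-high and WT1-intermediate arrays, with a line joining arrays of the same pair and every panel spanning the same range. The lines for Tlr1, Tlr2, Tlr6, Tlr7 and Cd14 rise from WT1-high to WT1-intermediate in all 3 pairs, whereas those for Tlr4, Tlr3, Tlr8 and Myd88 run in mixed directions.

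The macrophage sum of the same arrays was 5799 and 24929 for pair 1, 7652 and 20836 for pair 8, and 4338 and 15200 for the pair of WT1-high 29 with WT1-intermediate 30. It was therefore lower in the WT1-high array of each pair, as were Tlr7, Tlr6, Cd14, Tlr1 and Tlr2. The macrophage sum was not alone in this. Endothelial sums were 1091 and 1776, 1177 and 2209, and 1448 and 2009 in the same pairs. Neutrophil, dendritic cell and B cell sums were also lower in the WT1-high array of each pair. The mesothelial sum was higher in each, and the hepatocyte, stellate cell and T and NK cell sums went both ways. Over all 9 arrays, Tlr7 and Tlr6 were lowest where the macrophage sum was lowest and highest on the WT1-negative arrays, where Myd88 was lowest. Cd14 did not keep that order, since WT1-intermediate array 1 had a level of 11.80, above every WT1-negative array, at a macrophage sum below that of any of them. How much of any member's signal came from macrophages or from these other cells was not tested.

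**Figure D4:**
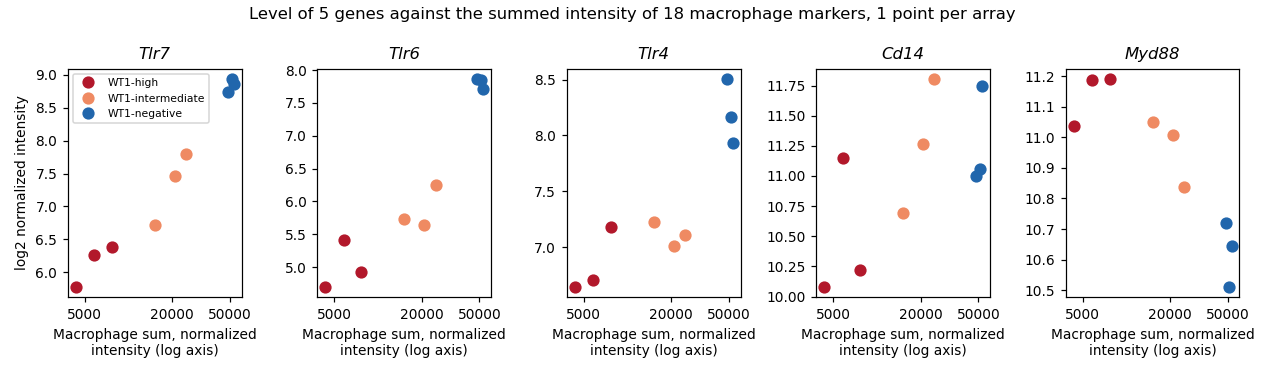
Log2 normalized intensity of 5 genes (leading probe) against the summed normalized intensity of 18 macrophage markers on a log axis, with 1 point per array coloured by WT1 group. The sum runs from 4338 to 53056, and Tlr7 rises with it from 5.78 to 8.94, while Myd88 is lowest on the WT1-negative arrays and Cd14 scatters.

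Likeness of pattern was measured by Pearson's r over the 9 arrays, which share groups and normalization, and is given without a test. The genes most like Tlr7 were the macrophage lysosomal gene Cd68 (0.995), Psap (0.995), a lysosomal activator precursor, and Lrmp (0.9945). For Tlr6 they were D430035B07Rik (0.996), Soat1 (0.995), which esterifies cholesterol, and Rab7l1 (0.994), and for Tlr8 Rapsn (0.997), Elmo1 (0.996) and Col28a1 (0.996). Each of these 9 genes had its highest group mean in WT1-negative cells. Tlr4 was most like C79407 (0.9845), Cenpl (0.983), a centromere protein, and Wdr51b (0.981).

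The other members had different neighbours. Tlr2 was most like Gngt2 (0.924), Tmem51 (0.918) and Coro1a (0.915), a leukocyte actin-binding protein, and these had their highest group mean in WT1-intermediate cells. For Tlr1 the genes were 2900045G02Rik (0.982), 4933437K13Rik (0.976) and Ryr1 (0.975), and for Cd14 they were A630006E02Rik (0.928), 2310001H17Rik (0.927) and 6230415M23Rik (0.925). Tlr3, detected on only 5 of 9 arrays, was most like Mobkl2b (0.952), Pms2 (0.877) and Lcp2 (0.875). Myd88 was most like LOC626152 (0.9896), Cdkl2 (0.984) and LOC227393 (0.980), which were highest in WT1-high cells. Among the members, Tlr6 with Tlr7 gave the highest r (0.964), and Myd88 with Tlr6 the lowest (-0.922).

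The pathway around the receptors was described with 86 other genes, of which 77 had a tested probe. Against WT1-negative cells, all tested adaptors and 10 (WT1-high) or 9 (WT1-intermediate) of 17 kinases and ubiquitin ligases were called lower in vivo, whereas 6 of 8 transcription factors and 11 of 16 target genes were called higher in each group. In WT1-high cells 37 of 77 genes were called higher and 24 lower than in WT1-negative cells, where 26.5% and 33.1% of all probes were. The WT1-intermediate group had 31 called higher and 19 lower, beside 24.4% and 33.6% of all probes. Between WT1-high and WT1-intermediate cells 3 of 77 were called, beside 3.55% of all probes, by limma with Benjamini-Hochberg adjustment as throughout. These were Tlr13, a receptor for bacterial ribosomal RNA (log2 difference -1.65), Ticam2, the bridging adaptor that couples TLR4 to TRIF (at least 1.82-fold lower in WT1-high), and Tlr5, the flagellin receptor (0.75). Relative to WT1-negative cells, Tlr13 was lower by -3.87 (WT1-high) and -2.22 (WT1-intermediate), whereas Tlr5 was higher in WT1-high cells (1.14). Tlr11 and Tlr12 were not tested.

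Of the accessory molecules, 3 of 10 tested were called higher and 4 lower in WT1-high than in WT1-negative cells, with a median of -0.0043. For WT1-intermediate cells the counts were 2 and 3, with a median of -0.18. Over all probes, 26.5% were called higher and 33.1% lower in WT1-high cells, and 24.4% and 33.6% in WT1-intermediate cells. The accessory counts lay near these shares. Ly96, which encodes the MD-2 partner of TLR4, had levels of 7.88 to 8.35 in WT1-high, 8.20 to 8.80 in WT1-intermediate and 8.56 to 8.95 in WT1-negative cells, and was lower in WT1-high cells (-0.65, limma adjusted p = 0.0142). Lbp, which brings lipopolysaccharide to CD14, was higher in both in vivo groups (2.91 and 2.94). Ly86, the partner of the TLR4 homologue RP105, was lower (-3.33 and -2.09), as was Unc93b1, the chaperone that carries TLR7 and TLR9 to endosomes (-2.93 and -1.92).

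All 3 tested adaptors were lower in both in vivo groups than in WT1-negative cells, where 33.1% (WT1-high) and 33.6% (WT1-intermediate) of all probes were called lower. Ticam2 was at least 6.84-fold lower in WT1-high cells, where it was detected on no array, and differed by -1.91 in WT1-intermediate cells. Tirap, which recruits MYD88 to TLR2 and TLR4, differed by -0.59 and -0.66 in the same order, and Ticam1, which encodes TRIF, by -0.50 in WT1-high cells. The leading Ticam1 probe was detected on no WT1-intermediate array and was there at least 1.37-fold lower, while its other tested probe was detected on 1 of 3 arrays of that group. Myd88 therefore moved in the opposite direction to these 3 tested adaptors in WT1-high cells.

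Of 17 kinases and ubiquitin ligases, 3 were called higher and 10 lower in WT1-high than in WT1-negative cells (median -0.69), and 2 higher and 9 lower in WT1-intermediate cells (median -0.64). All probes gave 26.5% higher and 33.1% lower for WT1-high, and 24.4% and 33.6% for WT1-intermediate cells. Irak4, the kinase that MYD88 recruits, was lower by -1.94 and -1.95, and Ikbke by -1.70 in WT1-high cells. Tab2, which links TRAF6 to TAK1, was lower by -1.02 in WT1-intermediate cells. Peli1, a ubiquitin ligase, was higher by 2.02 and 1.90. Of the 8 transcription factors, 6 were called higher in each in vivo group and 0 lower, with medians of 1.32 and 1.03. Irf7, an interferon regulator downstream of TLR7 and TLR9, exceeded its WT1-negative level by 2.51 (WT1-high) and 2.63 (WT1-intermediate), the NF-kappaB subunit gene Rel by 1.64 and 1.85, and Nfkb2 by 1.58 in each. Irf7 and Rel were each detected on 2 of 3 WT1-negative arrays.

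Among 15 inhibitors of the pathway, 9 were called higher and 2 lower in WT1-high cells (median 0.51), and 7 higher and 2 lower in WT1-intermediate cells (median 0.32). The matching shares of all probes were 26.5% and 33.1%, and 24.4% and 33.6%. Tnfaip3, the ubiquitin-editing enzyme A20, was higher than in WT1-negative cells by 3.99 and 3.56, Zc3h12a, an endonuclease that degrades inflammatory transcripts, by 2.70 and 2.34, and Atf3 by 2.63 and 2.66. Nfkbia, the NF-kappaB inhibitor, had levels of 11.82 to 12.06 in WT1-high, 11.60 to 11.92 in WT1-intermediate and 9.99 to 10.40 in WT1-negative cells and was called higher in both (1.79 and 1.61). Irak3, which restrains MYD88 signalling, went the other way in WT1-high cells (-0.78, limma adjusted p = 0.0022) and was not called in WT1-intermediate cells (-0.28).

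Of 16 tested target genes, 11 were called higher and 4 lower in WT1-high than in WT1-negative cells (median 2.23), and 11 higher and 1 lower in WT1-intermediate cells (median 1.87). Beside these counts, 26.5% and 33.1% of all probes were called higher and lower in WT1-high cells, and 24.4% and 33.6% in WT1-intermediate cells. The chemokine Ccl5 was higher by 5.02 and 5.47, Il6 by 3.47 and 4.26, and Il1b by 3.56 in WT1-intermediate cells, while the macrophage chemokine Ccl3 was lower by -3.71 in WT1-high cells. Ccl5 was detected on only 1 of 3 WT1-negative arrays, so that its differences rest partly on values not above background. Ccl5 is also made by T and NK cells, and the sum of 5 such markers was 479 to 800 in WT1-high, 445 to 875 in WT1-intermediate and 102 to 109 in WT1-negative cells. Cd4 and Cd8a were detected on no array. The part of these cells in the Ccl5 difference was not tested. Bambi, a decoy receptor for TGF-beta that TLR4 signalling is known to lower in stellate cells, was detected on no array.

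Endogenous ligands of the receptors were called higher for 4 of 6 genes in WT1-high cells (median log2 difference 1.05) and 3 of 6 in the WT1-intermediate group (median 0.76), and 0 were lower. S100a9 was higher by 2.53 and 3.01 and S100a8 by 1.72 and 2.39, which together form the TLR4 ligand calprotectin. The matrix proteoglycan gene Vcan lay at least 2.07-fold above its WT1-negative level in WT1-high cells. Since S100a8 and S100a9 are neutrophil genes, the sum of 7 other neutrophil markers is given, which was 229 to 363 in WT1-high, 248 to 664 in WT1-intermediate and 198 to 298 in WT1-negative cells. These markers did not move together. Retnlg had levels of 6.05 to 8.18 on the in vivo arrays and was detected on no WT1-negative array (at least 3.54-fold and 5.25-fold higher in the WT1-high and WT1-intermediate groups), whereas Mpo and Elane were called lower in WT1-high cells. The part of neutrophils in the S100a8 and S100a9 differences was not tested. Of all probes, 59.6% and 58.0% were called in the comparisons of WT1-high and WT1-intermediate cells with WT1-negative cells. Called higher were 26.5% and 24.4%, and lower 33.1% and 33.6%, in the same order.

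**Figure D5:**
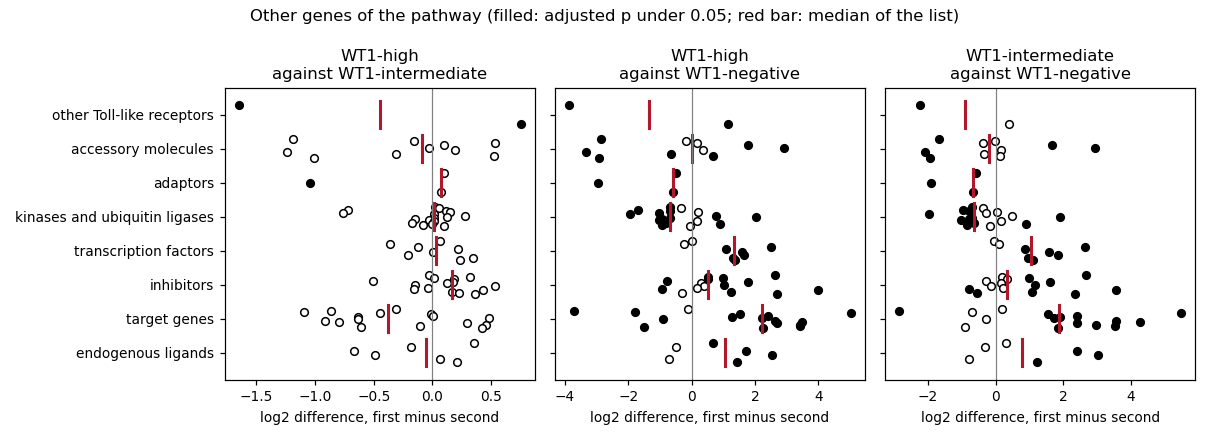
Log2 difference of 77 other pathway genes by list in the 3 comparisons, with 1 point per gene, filled where the limma adjusted p was under 0.05, and a red bar at the median of each list. In both comparisons with WT1-negative cells the adaptors and kinases have medians below zero, the transcription factors and target genes above 1.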

How the data were processed

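The deposited values were the authors' BeadStudio summary probe profiles, as a linear intensity per probe that was neither background corrected nor normalized. Each came with a deposited detection p-value from the negative controls and the bead number, which was 17 to 77 (median 41) for the member probes. The authors processed these values with limma (background correction, quantile normalization, log2, linear model), a sequence followed here with limma 3.58.1 in R 4.3.3. Background came from the 936 negative control probes through neqc, at an offset of 16. The filter kept the 20573 probes detected (p under 0.05) on 3 or more arrays. A probe detected mainly where its gene is high passes through those arrays, so that its call is no separate support. Examples are Tlr8, the second Tlr6 probe and the leading probes of Ticam1, Mpo and Elane, which passed only with the WT1-negative arrays. Retnlg and the leading Vcan probe passed only with in vivo arrays. A model with 3 groups was fitted to all 9 arrays, with moderated two-sided tests, Benjamini-Hochberg adjustment per comparison and 95% intervals. The steps were tested on simulated data. Errors of means are SD and those of differences SE. The number of arrays limits precision.

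The members and gene lists were chosen with earlier results of these data known. List genes were matched by symbol (176) or Entrez gene ID (8), and 4 had no probe here. Named were all members, per list and comparison up to 3 called genes with the largest change, 7 further pathway genes, and the 3 genes most like each member by Pearson's r. Wt1 was not analysed here. The column numbered 29 for a second time was taken as WT1-intermediate replicate 30, whose values it shared with the joined table. The pairing of in vivo arrays rests on the study's 3 animals and on the correlation of deviations from the group means across probes. This correlation was 0.35, 0.34 and 0.47 for pairs 1 with 1, 8 with 8 and 29 with 30, and -0.39 to 0.03 for other combinations. Deviations within a group cancel for each probe, so positive values in pairs force negative ones among the other combinations. The latter are therefore no separate support for the pairing. Alternatives were other background correction, normalization, filters, blocks, array weights, the mean of a gene's probes and leaving out each array.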

Additional observations from a re-analysis of the deposited data

How the results depend on the processing

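For WT1-high against WT1-intermediate cells, 1 member gene (1 probe) was called. This became 0 without background correction, with an offset of 50, with no filter and with only the 2 compared groups, 2 with cyclic loess, with detection on all 9 arrays and with a random replicate block, 3 with median scaling and 4 with a fixed replicate block, for genes and probes alike. Leaving out each array gave 0 to 2 genes and probes. The 730 calls over all probes became 335 with no filter, 339 with only the compared groups, 1520 with the fixed and 1796 with the random replicate block, and 324 to 866 when an array was left out. Against WT1-negative cells, member counts stayed within 1.5 times of 6 genes and 9 probes for WT1-high and of 4 genes and 7 probes for WT1-intermediate cells (5 to 7, 8 to 10, 4 to 5 and 7 to 8 when an array was left out). The calls over all probes became 7970 of 12258 and 7716 of 11935 with detection on all 9 arrays, as fewer probes were tested, and 10171 to 12414 and 9799 to 12048 when an array was left out.

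Of 678 repeated member values, 632 kept direction and side of the threshold. Signs turned only for values near zero that were not called. For WT1-high against WT1-negative cells Tlr3 ranged from -0.076 to 0.21 when an array was left out, with -0.015 without WT1-high 1 or WT1-negative 14 and -0.076 without WT1-negative 11. For WT1-intermediate against WT1-negative cells Tlr1 gave 0.011 with cyclic loess and -0.69 to 0.27 when an array was left out, the highest without WT1-intermediate 30, Tlr2 gave -0.14 with median scaling, and Cd14 gave 0.064 with cyclic loess, 0.11 with array weights and -0.29 to 0.27 when an array was left out (0.27 without WT1-intermediate 30 and 0.22 without WT1-negative 11). The Tlr1 call between WT1-high and WT1-negative cells was lost without background correction (-0.48) and with no filter (limma adjusted p = 0.0759). Without background correction called differences from WT1-negative cells shrank, for Tlr6 to -1.47 and -1.15 and for Tlr7 to -1.86 and -1.16, and kept their calls. The leading Myd88 probe was called in WT1-intermediate cells under 7 of 19 alternatives. The replicate block changed, beyond the calls given above, only Cd14 between WT1-high and WT1-negative cells (limma adjusted p = 0.0449). The causes were not tested. Probes near background, such as those of Tlr3, Tlr8 and Tlr9, are limited by their signal.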
